A study of Mus musculus with 4 samples.

Results

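The genes examined here are 29 genes of cholesterol synthesis, sensing, transport and efflux, followed through the conversion of cardiac mesenchymal progenitors (CMPs) carrying reprogramming factors. They were chosen by name: a gene belonged if the gene name of a probe on the array, or an older or newer synonym of it, was on the list. All 29 were measured, among 16657 genes with a named probe well above background on at least 1 of the 4 arrays. CMPs are Sca-1-positive stromal cells isolated from the hearts, by the study's methods the atria, of adult wild-type C57BL/6 mice and grown in serum with basic fibroblast growth factor. The CMP control received no virus and is labelled day 0, and whether it was cultured in parallel is not given in the sources used here. The OSKM-CMPs were infected with Sendai virus vectors carrying Oct4, Sox2, Klf4 and c-Myc, moved at day 0, the day after infection, to a reprogramming medium without leukemia inhibitory factor, and collected at day 4, day 6 and day 8. Each condition had 1 one-color Agilent array, so no difference below carries a p-value. The errors given are those of the scanner software's model within an array and leave out the spread between cultures. The OSKM-CMPs differ from the control in the factors, the virus, the medium and the time in culture together, and the parts of these in a difference cannot be told apart.

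Cells make cholesterol from acetyl-CoA. The mevalonate steps build isoprenoid units and join them to farnesyl diphosphate, squalene synthase and squalene epoxidase commit the product to sterols, and a series of enzymes of the endoplasmic reticulum trims and reduces the ring system. The supply is sensed in the same membrane: Scap carries the transcription factor precursor encoded by Srebf2 to the Golgi when sterols are scarce, and Insig proteins hold it back when they are plentiful. Excess cholesterol leaves through the transporters encoded by Abca1 and Abcg1 and is carried by apolipoproteins such as the product of Apoe, genes that the oxysterol-sensing liver X receptors are known to induce. Adipocytes hold a large pool of free cholesterol, much of it at the lipid droplets.

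By these data most synthesis enzymes were highest at day 4, whereas no efflux gene was, and the efflux genes did not move together. The 18 synthesis enzymes had a median log2 change of 0.79 from the control to day 4, against -0.01 for all genes measured, and the median was 0.32 at day 6 and 0.32 at day 8. Of the 18 enzymes, 16 had their highest level of the 4 arrays at day 4, which 21.2% of all genes had, and 18 were lower at day 6 than at day 4, 16 of them by more than their error, as 54.4% of all genes were by any amount. In contrast, Abca1, Apoe, Insig1, Npc2, Ggps1 and Insig2 were at their highest at day 8, Insig2 within its error of the control. The share of all genes highest at day 8 was not computed. Abcg1 was lower than in the control on every OSKM-CMP array. Members at least 2-fold higher than the control at day 4 were 5 of 29 (17.2%), beside 12.1% of all genes, and 1 of 29 was at least 2-fold lower, beside 9.57%. At 1.5-fold, 15 of 29 members were higher at day 4, of which 13 were synthesis enzymes, beside 19.7% of all genes.

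**Figure D1:**
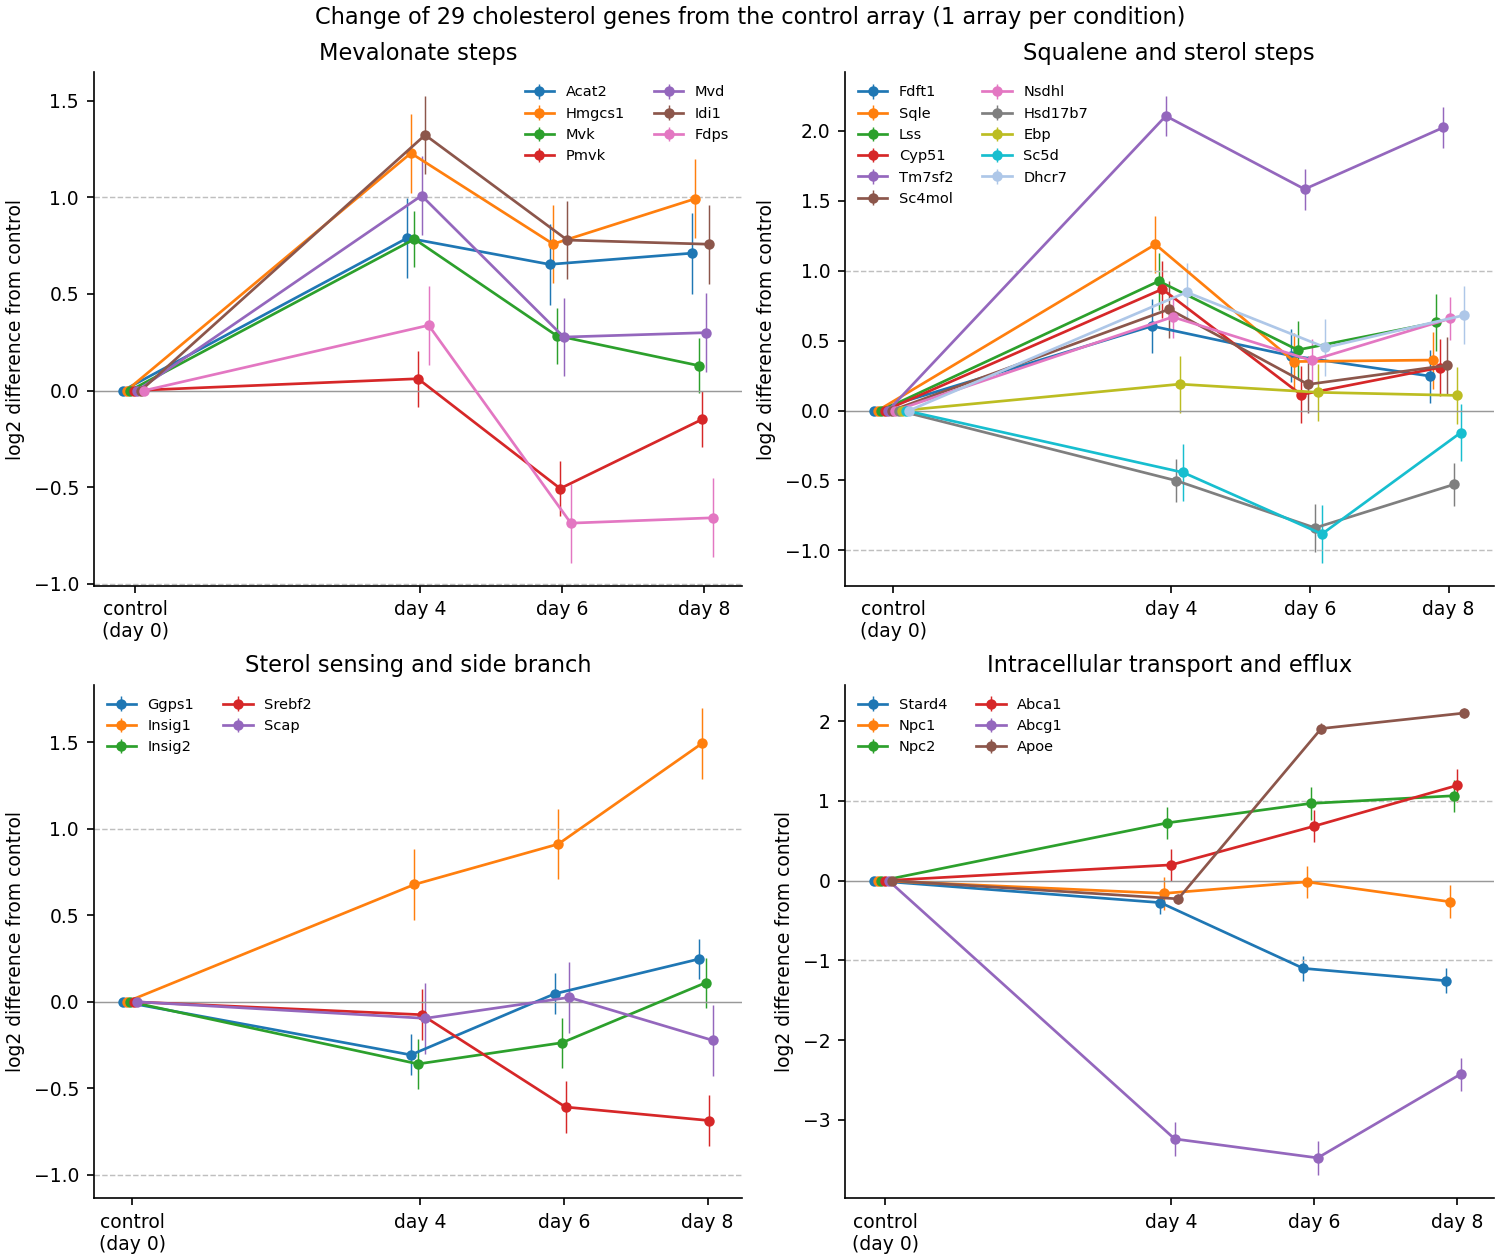
Log2 difference from the control array (y axis) on each array (x axis, control, day 4, day 6 and day 8) for the 29 genes in 4 panels by role, each point 1 array. Bars are the within-array error of a difference, and dashed lines mark 2-fold. Most enzymes are highest at day 4, whereas Insig1, Insig2, Ggps1, Abca1, Npc2 and Apoe end highest at day 8 and Abcg1 stays below -2.

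The promoters of the enzymes that were 2-fold higher at day 4 are shown because the sterol-regulated enzymes are known to share promoter elements. Sequences are the 250 bases before the RefSeq start of transcription on GRCm38.p6, read along the gene's strand, for the 4 of the 5 enzymes with an entry in the RefSeq promoter table. Sqle was not in it. Capitals mark matches on either strand to a sterol regulatory element (TCACNCCAC), a CCAAT box (CCAAT) or a GC box (GGGCGG).
Hmgcs1, chr13:119690101-119690350, plus strand: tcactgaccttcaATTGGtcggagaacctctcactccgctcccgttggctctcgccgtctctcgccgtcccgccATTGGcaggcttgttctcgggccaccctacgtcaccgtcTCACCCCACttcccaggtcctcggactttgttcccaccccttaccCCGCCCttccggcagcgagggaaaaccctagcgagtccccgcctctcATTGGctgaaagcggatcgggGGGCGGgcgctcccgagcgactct
Mvd, chr8:122443423-122443672, minus strand: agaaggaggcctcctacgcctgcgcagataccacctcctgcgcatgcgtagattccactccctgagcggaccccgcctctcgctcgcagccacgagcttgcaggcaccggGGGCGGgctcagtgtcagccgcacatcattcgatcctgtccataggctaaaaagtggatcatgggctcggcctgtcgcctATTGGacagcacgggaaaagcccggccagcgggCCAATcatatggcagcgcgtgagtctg
Idi1, chr13:8885356-8885605, plus strand: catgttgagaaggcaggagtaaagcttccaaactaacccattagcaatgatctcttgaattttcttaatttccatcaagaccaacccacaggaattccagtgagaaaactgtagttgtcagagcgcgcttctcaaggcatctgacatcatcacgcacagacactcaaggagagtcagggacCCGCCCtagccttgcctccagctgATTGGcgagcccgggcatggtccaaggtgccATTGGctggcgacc
Tm7sf2, chr19:6067851-6068100, minus strand: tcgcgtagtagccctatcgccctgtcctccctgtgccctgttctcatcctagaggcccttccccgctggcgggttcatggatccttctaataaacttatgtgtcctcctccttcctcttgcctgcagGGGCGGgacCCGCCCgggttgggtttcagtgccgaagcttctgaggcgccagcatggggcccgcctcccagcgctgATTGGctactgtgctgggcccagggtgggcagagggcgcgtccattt
Hmgcs1 had 1 match to the sterol element, 3 CCAAT boxes and 2 GC boxes. The 4 promoters had between 1 and 3 CCAAT boxes and either 1 or 2 GC boxes each.

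Of the 29 genes, 23 had a promoter entry, 15 of them synthesis enzymes. At least 1 window of 14 of these 15 enzymes held a CCAAT box, as did 37.5% of the 27025 genes in the table and 33.8% of its windows. Acat2 was the enzyme without one. Among all 23 members the count was 19, and Scap, Abca1 and Apoe were the others without a CCAAT box. Mvk held 5 of them, the most in a window among the members. GC boxes were in 14 of the 15 enzymes and in 35.4% of all genes. The sterol element as spelled was in Hmgcs1 alone among the 23 members and in 1.22% of all genes. Matches to different elements could overlap, and a match is a string of letters in the window, not a measured site. Fdps, Fdft1, Sqle, Stard4, Npc1 and Abcg1 had no entry.

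The 7 genes of the mevalonate steps had a median log2 change of 0.79 at day 4. Of these, 6 lay above the control by more than their within-array error and Pmvk lay within it. By any amount all 7 were above the control, beside 49.3% of all genes. No share of all genes beyond their error was computed, for this or any other count beyond error. Hmgcs1, Mvd and Idi1 were at least 2-fold higher. Levels below are log2 signals relative to the 75th percentile of the same array, and they can be compared between arrays for 1 gene but not between genes. Hmgcs1, which condenses acetoacetyl-CoA to HMG-CoA, had log2 levels of 3.67 in the control and then 4.90, 4.43 and 4.66 at days 4, 6 and 8. It was 2.35-fold higher than the control at day 4 (log2 change 1.23 ± 0.20, within-array error) and 1.99-fold higher at day 8, just short of 2-fold. Its value rests on 1 probe (chr13_random:114793-114852, mm9), since a second was dim on all arrays and was left out. Idi1, the isomerase of isopentenyl diphosphate, had log2 levels of 2.30, 3.63, 3.08 and 3.06 in the order control, day 4, day 6 and day 8. It was 2.50-fold higher at day 4 (1.32 ± 0.20), and remained 1.72-fold higher at day 6 and 1.69-fold at day 8.

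Mvd, which forms isopentenyl diphosphate, had log2 levels of 0.65, 1.66, 0.93 and 0.95 in the same order. Its change at day 4 was just over the 2-fold line (1.01 ± 0.20), and by day 6 it was within 0.28 of the control. Mvk, mevalonate kinase, had a log2 change of 0.78 ± 0.14 at day 4 and of 0.13 ± 0.14 at day 8, with its 2 probes within 0.06 of each other in both comparisons. Acat2, a cytosolic acetoacetyl-CoA thiolase, stayed higher on all OSKM-CMP arrays, with log2 changes of 0.79, 0.65 and 0.71 at day 4, day 6 and day 8. With normexp background correction these were 0.47, 0.35 and 0.37, a move beyond the error. Thus Acat2 and Hmgcs1, at the entry of the pathway, and Idi1 were still at least 1.5-fold higher than the control at day 8, and Mvk and Mvd were not. Acat2 fell short of 1.5-fold at day 8 with normexp correction.

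Pmvk and Fdps had the smallest changes of this group at day 4. Pmvk, phosphomevalonate kinase, had log2 levels of 3.18, 3.24, 2.67 and 3.03 in the control and at day 4, day 6 and day 8. Both Pmvk probes gave a lower level at day 6 than in the control, with changes of -0.50 and -0.52. Fdps, farnesyl diphosphate synthase, had log2 levels of 4.52, 4.86, 3.83 and 3.86. It was above the control at day 4 (0.34 ± 0.20) and below it at day 6 (-0.69 ± 0.20) and day 8 (-0.66 ± 0.20). Between day 4 and day 6 Fdps was 2.03-fold lower (-1.02), the largest difference between those arrays among the 18 enzymes. Mouse Fdps has near-identical copies in the genome, so its 1 probe may read more than 1 locus.

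Of the 11 squalene and sterol steps, 8 were above the control at day 4 by more than their error, 2 were below it and Ebp lay within it. By any amount 9 of the 11 were above the control, beside 49.3% of all genes. Sqle and Tm7sf2 were at least 2-fold higher. Sqle, squalene epoxidase, had log2 levels of 3.13 in the control and then 4.32, 3.48 and 3.49 at days 4, 6 and 8. It was 2.28-fold higher at day 4 (1.19 ± 0.20) and 1.28-fold higher at day 8. Its level at day 4 stood 0.83 above the next highest array, the widest lead of the 16 enzymes highest at day 4. Lss, which closes the ring to lanosterol, had log2 changes of 0.93, 0.43 and 0.63 at day 4, day 6 and day 8. Cyp51, the lanosterol demethylase, had changes of 0.87, 0.11 and 0.31, and Sc4mol (now Msmo1), a sterol methyl oxidase, had changes of 0.73, 0.19 and 0.32. These 3 genes therefore had the same order of arrays, day 4 first, then day 8, then day 6, but day 8 and day 6 differed by less than the error in each.

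Tm7sf2, a sterol reductase acting after Cyp51, had the largest change of all 18 enzymes and stayed high. Its log2 levels were -1.22 in the control and then 0.89, 0.37 and 0.81 at days 4, 6 and 8. It was 4.31-fold higher at day 4 (2.11 ± 0.15), 3.00-fold at day 6 and 4.07-fold at day 8 (2.03 ± 0.15), and it was the 1 synthesis enzyme past 2-fold at day 6 and at day 8. Both probes (chr19:6062882-6062941 and chr19:6063541-6063600, mm9) gave this pattern, with changes at day 8 of 2.23 and 1.82. With normexp correction the changes of Tm7sf2 were 1.75, 1.26 and 1.68, smaller by more than the error but still past 2-fold. Lbr, which codes for the other enzyme of this reduction and is not among the 29, had log2 levels of -0.30, -0.51, -1.04 and -1.10; Lbr was picked for mention after its values had been seen.

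Dhcr7, which makes the last reduction to cholesterol in one branch, had log2 levels of -1.10, -0.25, -0.65 and -0.41 on the control, day 4, day 6 and day 8 arrays. Nsdhl, a sterol dehydrogenase, had log2 changes of 0.67, 0.36 and 0.66, and its day 4 and day 8 levels differed by 0.01. Ebp, the sterol isomerase, changed by 0.19 ± 0.20 at day 4, within its error. Hsd17b7 and Sc5d were lower at day 4 than in the control. Hsd17b7, a sterol ketoreductase, was below the control on each later array, with log2 changes of -0.50, -0.84 and -0.53. Sc5d, the sterol desaturase, had log2 levels of 3.09, 2.65, 2.21 and 2.93, lowest at day 6 and within its error of the control at day 8 (-0.16 ± 0.20).

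**Figure D2:**
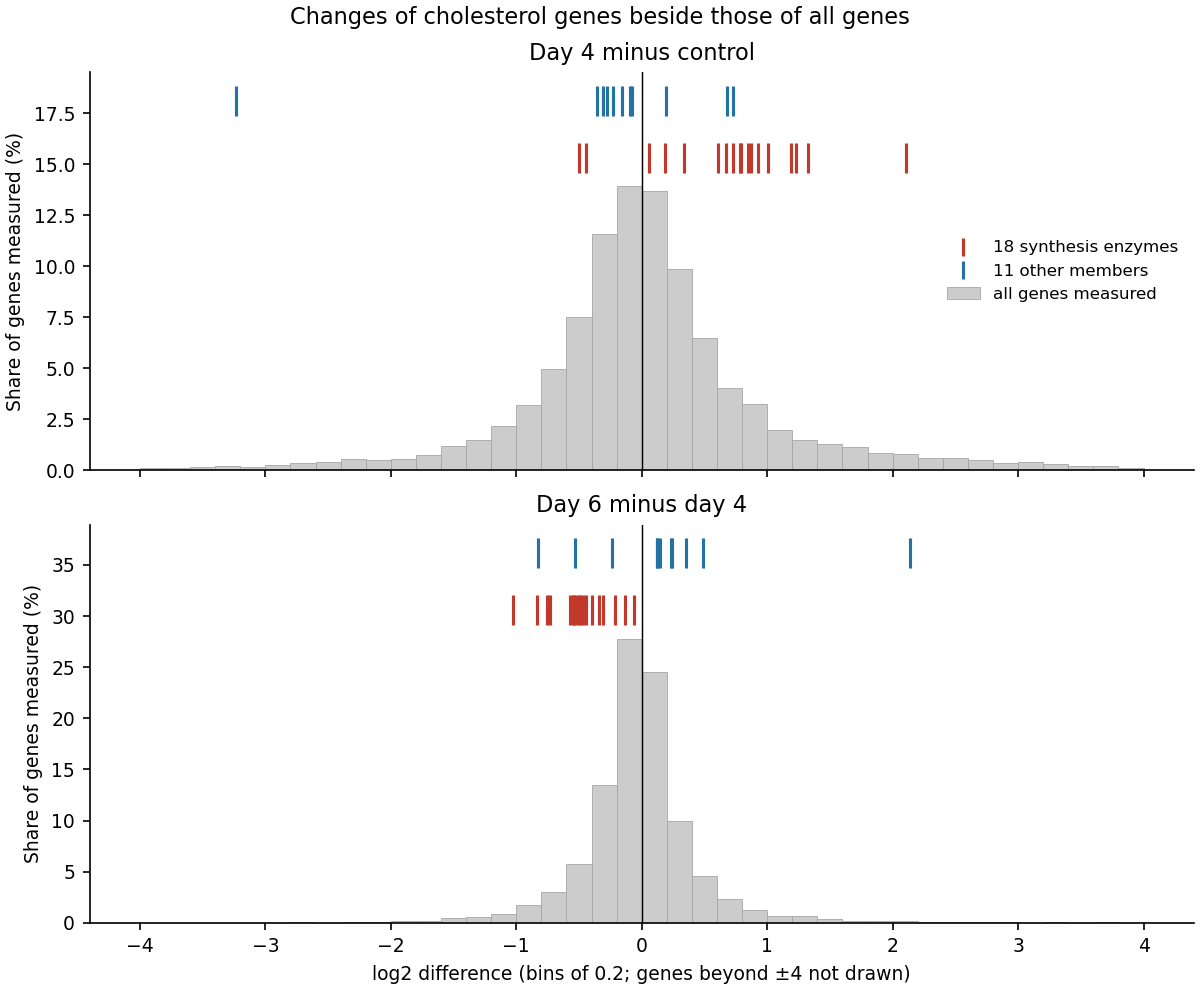
Share of the 16657 genes measured (y axis, percent) by log2 difference (x axis, bins of 0.2), from the control to day 4 above and from day 4 to day 6 below. Red marks are the 18 synthesis enzymes and blue marks the 11 other members. From day 4 to day 6 all 18 red marks lie below 0, with a median of -0.50 against -0.03 for all genes.

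From day 4 to day 6 the 18 enzymes changed by a median of -0.50 on the log2 scale, from -1.02 (Fdps) to -0.06 (Ebp), while all genes had a median of -0.03. The lower level was most marked in Fdps, Sqle (-0.84), Cyp51 (-0.75) and Mvd (-0.73). From day 6 to day 8 the enzymes had a median change of 0.16, against -0.01 for all genes, and 14 of 18 were above their day 6 level by any amount, as 48.4% of all genes were. Beyond their error 7 were higher, 1 was lower (Mvk) and 10 lay within it. No member was 2-fold lower at day 8 than at day 4 (4.10% of all genes were), although Fdps, at -0.997, lay just short of it. At 1.5-fold, 6 of 29 members were lower at day 8 than at day 4 (Mvk, Mvd, Fdps, Sqle, Srebf2 and Stard4), beside 10.0% of all genes. For 10 of the 16 enzymes that peaked at day 4 the lead over the next array was larger than its error, and for Acat2, Pmvk, Tm7sf2, Nsdhl, Ebp and Dhcr7 it was not. Ggps1, which directs farnesyl diphosphate into geranylgeranyl diphosphate and away from sterols, did not share the peak. Its log2 levels were 1.46, 1.16, 1.51 and 1.71, lowest at day 4.

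Of the 29 members, 10 had more than 1 kept probe, and the probes of Fdft1, Stard4, Hsd17b7 and Ggps1 differed most, by 0.79 to 1.46 at their widest on the log2 scale; Tm7sf2 came next with 0.41. Fdft1, squalene synthase, had a probe with a log2 level of 1.47 in the control and changes of 1.11, 0.44 and 0.28, which is past 2-fold at day 4. Its other probe, dim with a level of -4.27 in the control, changed by 0.10, 0.35 and 0.21, so the mean of 0.60 at day 4 lies between probes that differ by 1.01. Stard4, a soluble carrier of sterols between membranes, had changes at day 8 of -0.53 on its brighter probe and -1.98 on the other. The 3 probes of Hsd17b7 ranged from -0.92 to -0.04 at day 8, and the dimmest was not well above background at day 6. The 3 probes of Ggps1 ranged from -0.18 to 0.61 at day 8.

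**Figure D3:**
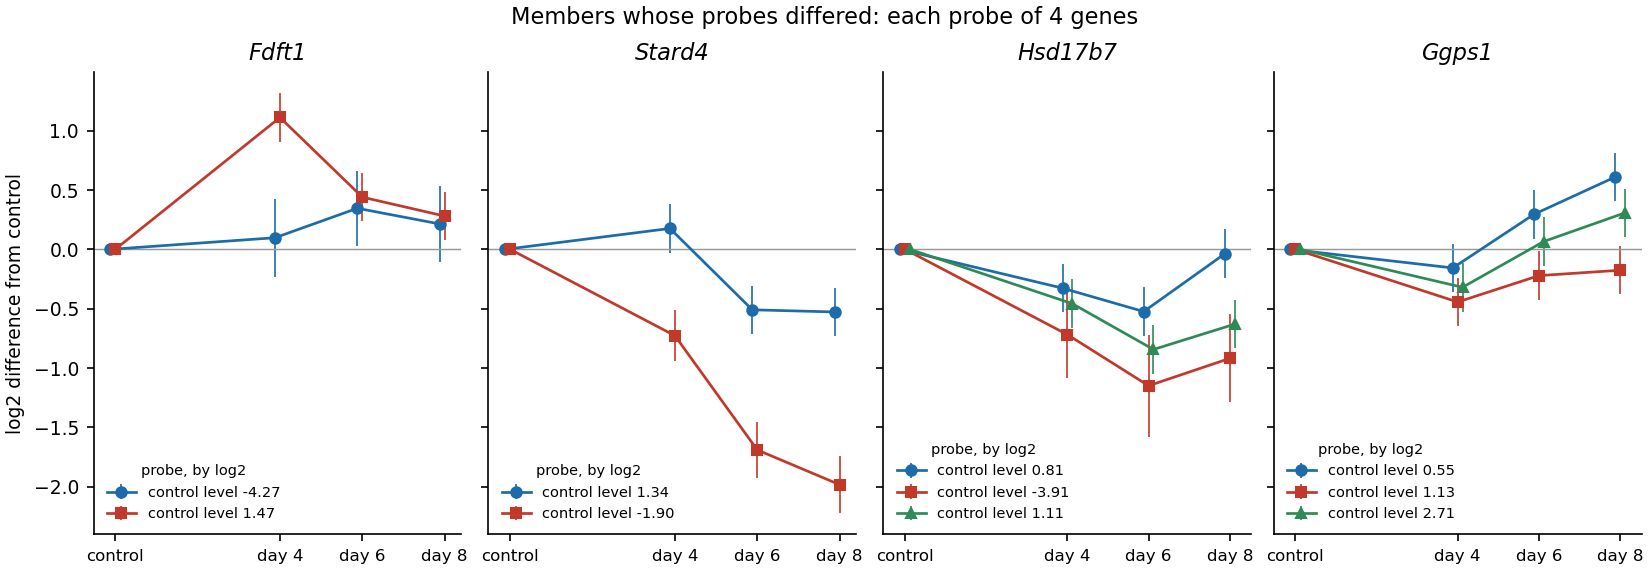
Log2 difference from the control (y axis) on each array (x axis) for every kept probe of Fdft1, Stard4, Hsd17b7 and Ggps1, 1 line a probe, with within-array error bars and the probe's log2 level in the control in the key. The Fdft1 probes part at day 4 (1.11 and 0.10), and those of Stard4 part further at each later array.

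Among the sterol sensors, Insig1 was the member that changed most. Insig1, a sterol-dependent anchor for the Scap complex and itself a known target of the pathway's transcription factor, had log2 levels of -0.32 in the control and then 0.36, 0.60 and 1.18 at days 4, 6 and 8. Day by day it was 1.60-fold, 1.88-fold and 2.82-fold higher than the control, and its day 8 change of 1.49 ± 0.20 was opposite in course to that of most enzymes, which were lower at day 8 than at day 4. Insig2, its relative, had changes of -0.36, -0.24 and 0.11. Srebf2, which codes for the transcription factor SREBP-2, was close to the control at day 4 (-0.07 ± 0.15) and lower at day 6 (-0.61) and day 8 (-0.69 ± 0.15), on both of its probes. Scap, the escort protein, had changes of -0.10, 0.03 and -0.22. The sensing genes thus split, with Insig1 higher, Srebf2 lower and Scap and Insig2 near the control at day 8.

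Intracellular transport differed by gene. Npc2, a soluble cholesterol-binding protein of the lysosome, had log2 levels of 5.34, 6.06, 6.30 and 6.40 on the control, day 4, day 6 and day 8 arrays. It was 1.65-fold higher at day 4 and 2.09-fold at day 8 (1.06 ± 0.20). Npc1, its membrane partner, had log2 levels of -0.19, -0.35, -0.21 and -0.46, with no difference from the control beyond 0.26 in size. Stard4 averaged over its probes was 1.21-fold lower at day 4, 2.14-fold lower at day 6 and 2.39-fold lower at day 8 (-1.26 ± 0.16), but its brighter probe alone did not reach 2-fold and was 0.18 above the control at day 4. The lysosomal partners thus differed, with Npc2 higher on each later array and Npc1 near its control level.

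The efflux genes had the widest range of the 29. Abcg1, a half-transporter that passes cholesterol to high-density lipoprotein, had log2 levels of 0.66 in the control and then -2.57, -2.81 and -1.76 at days 4, 6 and 8, on 1 probe (chr17:31252580-31252639, mm9). It was 9.43-fold lower than the control at day 4 (-3.24 ± 0.21), 11.1-fold lower at day 6 and 5.37-fold lower at day 8 (-2.43 ± 0.21). These sizes depend on the processing: with normexp correction the log2 changes were -2.51, -2.66 and -2.04, a move beyond the error. All OSKM-CMP arrays lay far below the control, and day 8 was 1.76-fold above day 4. Abca1, the transporter that loads lipid-poor apolipoproteins, had log2 levels of 2.15, 2.35, 2.83 and 3.34, higher on each later array. It was 1.15-fold, 1.60-fold and 2.29-fold higher than the control at day 4, day 6 and day 8 (1.19 ± 0.20 at day 8).

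Apoe, the apolipoprotein of lipid uptake and efflux, stood below the control at day 4 and above it afterwards. Its probe, spotted 10 times on each array (chr7:20281732-20281791, mm9), had log2 levels of 5.38 in the control and then 5.15, 7.28 and 7.48 at days 4, 6 and 8. It was 4.39-fold higher at day 6 than at day 4, the largest step between consecutive OSKM-CMP arrays among the 29. At day 8 it was 4.29-fold higher than the control (2.10 ± 0.06). That error is small because the 10 spots were treated as independent, and under quantile normalization the change was 2.42. The change at day 4 was -0.23, but -0.07 under quantile normalization and -0.09 with normexp correction, so the size of that difference depends on the processing. From day 4 to day 8 Apoe was the 1 member at least 2-fold higher (1 of 29, 3.45%, beside 4.92% of all genes), and Abca1, at a log2 change of 0.997, lay just under that line. Abca1 and Apoe were thus higher while Abcg1 was lower, and the 3 efflux genes did not move together.

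At day 6, 2 of 29 members were at least 2-fold higher than the control (Tm7sf2 and Apoe, beside 13.0% of all genes) and 2 were at least 2-fold lower (Stard4 and Abcg1, beside 11.5%). Stard4 missed 2-fold at day 6 and at day 8 with normexp correction or the brightest probe of a gene. At 1.5-fold, 8 members were higher at day 6 (beside 20.6%) and 6 were lower (Fdps, Hsd17b7, Sc5d, Srebf2, Stard4 and Abcg1, beside 20.6%). At day 8, 5 of 29 were higher (Tm7sf2, Insig1, Npc2, Abca1 and Apoe, beside 14.4%) and 2 were lower (Stard4 and Abcg1, beside 11.6%). Of the 5 members higher at day 4 (Hmgcs1, Mvd, Idi1, Sqle and Tm7sf2), only Tm7sf2 was among the 5 at day 8. Hmgcs1, at 1.99-fold, lay just short of the line at day 8 and passed it under some alternatives. The share of all genes past 2-fold on both days was not computed. At 1.5-fold, 11 members were higher at day 8 (beside 22.5%) and 4 were lower (Fdps, Srebf2, Stard4 and Abcg1, beside 21.3%). The members' shares past 2-fold (6.90% each way at day 6, and 17.2% higher and 6.90% lower at day 8) were near or below those of all genes.

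**Figure D4:**
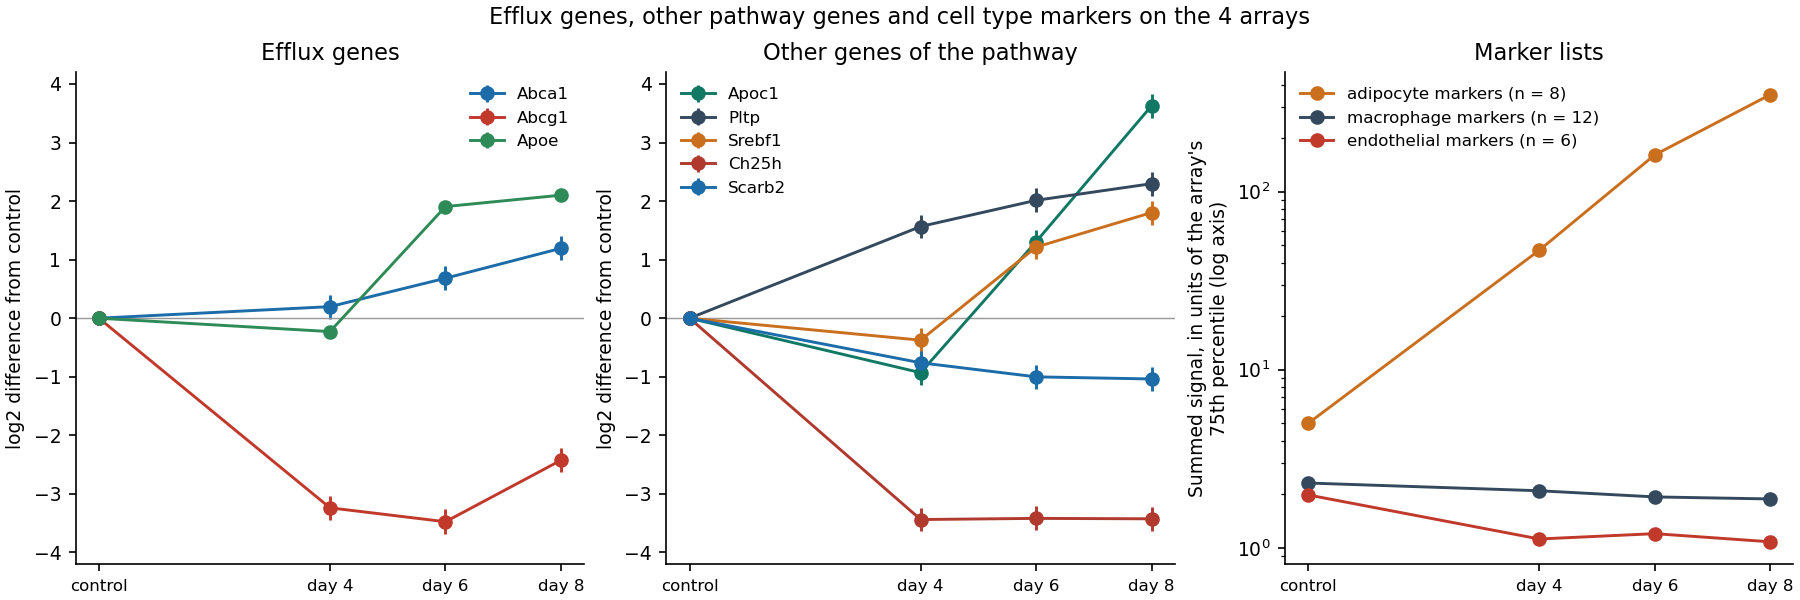
Left and middle, log2 difference from the control (y axis) on each array (x axis) for the efflux genes and for other genes of the pathway, with within-array errors. Right, summed signal of cell type marker lists on a log axis, in units of the array's 75th percentile. Apoe, Apoc1 and Srebf1 are below the control at day 4 and above it at day 6 and day 8, and the adipocyte sum goes from 5.0 to 351.

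Values of 47 other genes of sterol handling were measured and are counted here. At day 4, 4 were at least 2-fold higher than the control, beside 12.1% of all genes, and 2 were lower, beside 9.57%. At day 8, 7 were higher, beside 14.4%, and 2 were lower, beside 11.6%, so that the list was near or below the shares of all genes. Apoc1, an apolipoprotein gene beside Apoe, had log2 levels of -0.66, -1.59, 0.65 and 2.97 on the control, day 4, day 6 and day 8 arrays, 12.4-fold higher at day 8 than in the control. Its order of arrays was that of Apoe, with day 4 lowest and day 8 highest. Srebf1, the lipogenic relative of Srebf2 and a known target of liver X receptors, had the same order, with log2 levels of -0.79, -1.16, 0.43 and 1.02. Pltp, the phospholipid transfer protein, was 2.96-fold higher at day 4 and 4.92-fold at day 8. Nr1h3, the liver X receptor alpha gene, had log2 levels of 0.92, 0.21, 1.85 and 2.30, again lowest at day 4. Nr1h2, the other liver X receptor gene, stayed near the control, with levels of 4.61, 4.36, 4.50 and 4.41. Both receptor genes were picked for mention after their values had been seen. Abca1 and Pltp, lowest in the control, and Abcg1, lowest at day 6, did not have the order of Apoe. The part of liver X receptors in any of these levels was not tested.

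Ch25h, the enzyme that makes 25-hydroxycholesterol, had the largest difference of the list in the other direction. Its log2 levels were 3.55 in the control and 0.12, 0.14 and 0.13 at day 4, day 6 and day 8, 10.8-fold lower at day 4. It was lower at day 4 as Abcg1 was, and unlike Abcg1 its level was the same within 0.02 on the 3 later arrays. Scarb2, a lysosomal membrane protein, was lower at day 8 by 1.04 on the log2 scale.

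Markers of other cells moved with some of these genes. All 8 mesenchymal progenitor markers were well above background on all arrays, but 6 of the 8 were below the control at day 8 and their median log2 change was -0.45. Their summed signal was 1110, 927, 825 and 835 on the control, day 4, day 6 and day 8 arrays, in units of the array's 75th percentile. Thy1, a surface marker of stromal cells, had a log2 level of 8.07 in the control and of 6.29 at day 8, and Eng, which codes for endoglin, had levels of 4.44 and 3.25. Ly6a (Sca-1), by which the cells were isolated, went the other way, from 4.65 to 7.35. The adipocyte markers went from 3 of 8 well above background in the control to 8 of 8 at day 8, with a summed signal of 5.0, 46.9, 161 and 351. Fabp4, a fatty acid carrier of adipocytes, had log2 levels of 1.28 in the control and 7.06 at day 8. Pparg and Cebpa, transcription factors of adipocyte differentiation, had log2 changes of 3.84 and 3.15 at day 8. The part of these markers in the higher levels of Apoe, Abca1, Insig1 and Npc2 at day 8 was not tested. Of the endothelial markers, 6 of 6 were well above background in the control, 4 at day 4, and 3 at day 6 and day 8, and their summed signal was 1.98, 1.12, 1.20 and 1.08. Kdr, near its control level on all arrays, was the largest part of each sum, so the sums understate the lower levels of other markers. Cdh5, which defines endothelial junctions, was at least 10.8-fold lower at day 4 than in the control, and Tek went from -1.79 in the control to -4.13 at day 4, while Pecam1 and Kdr stayed within 0.27 of the control on the log2 scale. Endothelial cells use Abcg1, and the part of these markers in its difference was not tested.

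Of 12 macrophage markers, 7 were well above background in the control, 5 at day 4 and 7 at day 6 and day 8, with summed signals of 2.31, 2.09, 1.93 and 1.88. Csf1r, Itgam and Cd14 made up most of each sum, with log2 changes at day 4 of -0.54, -0.23 and 1.06. Lyz2 was lower at day 4 (-4.62 against -1.45 in the control), and Tyrobp passed the background limit in the control only. Mrc1, Fcgr1, Cx3cr1 and Laptm5 did not pass it on an array. A marker counted as well above background only where all its kept probes passed. Cd68 met this at day 6 and day 8 only, although its probes did not all fail in the control. Macrophages are rich in Apoe, Abca1 and Abcg1, and the part of these markers in the levels of those genes was not tested. Of 6 cardiomyocyte markers, 2 were well above background in the control and 4 at day 8, with summed signals of 11.9, 4.63, 6.71 and 4.13. These sums are nearly all Tnnt2, a troponin gene, with log2 levels of 3.56, 2.14, 2.70 and 1.96. Tnni3 and Myh6, not well above background in the control, were still dim at day 8, with log2 levels of -3.43 and -4.41. Tnni3 was 3.28-fold higher at day 8 than its own dim control signal, and Myh6 was at least 1.75-fold higher. In a bulk sample, fewer cells of a type and less RNA per cell cannot be told apart.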

How the data were processed

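Total RNA from CMPs was labelled with Cy3 and hybridised to 4 one-color Agilent mouse arrays, 1 per condition. The authors read them with Feature Extraction (version 10.7.3.1 per the file headers, 9.5.3 per the labels), and the deposited scanner files give a background-subtracted signal intensity for each spot. The authors also deposited normalized log2 values, which equal the log2 signal minus a constant per array, with column medians between -4.22 and -3.96. Probe positions (mm9) are those of the files; no annotation of that build was used here.

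Here, control and outlier spots were left out, each of 55675 probes took the mean log2 intensity of its spots, and the array's 75th percentile was subtracted. Probes well above background on none of the 4 arrays were dropped, which left 35540; between 56.6% and 59.6% of probes passed on each array. RefSeq's table of GRCm38.p6 named 26759 probes through an accession, 3819 through a symbol and 639 through a synonym, leaving 24458 without a name. Kept probes of a gene were averaged. The 29 members had 42 probes, of which 41 were kept. The number of arrays limits precision, and 1 array per condition allows no test. Errors combine the Feature Extraction error of each spot (median 0.20 for a member's log2 difference). Where a gene was dim on one array, the fold is a bound against the lowest passing signal there, or an estimate against the gene's own signal where that was higher. Python 3.11.15, numpy 2.4.6, pandas 2.3.3, R 4.3.3 and limma 3.58.1 were used, and the calculation was tested on simulated data.

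The members and lists were chosen with earlier results of these data known. All 29 members are named, and some genes of another list are not reported here. Of the other lists, up to 3 genes higher and 3 lower with the largest change from the control to day 8 are named, among those changed at least 2-fold and well above background on both arrays; defining markers of other cells are named too. Alternatives were the authors' values, quantile normalization, normexp background correction (offset 50) with quantile normalization, scaling to the array median, keeping all probes or requiring all 4 arrays to pass, flooring dim values, taking a gene's brightest probe, and a threshold of 1.5-fold.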

Additional observations from a re-analysis of the deposited data

How the results depend on the processing

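Of the values behind the main comparisons, 92 of 103 recomputed under an alternative moved by less than the limits set for them. No median changed sign, and the other results are counts, which have no direction. The median change of the 18 enzymes lay between 0.73 and 0.82 at day 4 and between 0.31 and 0.43 at day 8 over the alternatives. The enzymes highest at day 4 numbered 15 or 16 and those lower at day 6 than at day 4 numbered 17 or 18, in alternatives added after these counts had been seen, as were those for the counts at day 6. With 1.5-fold in place of 2-fold, 15 members were higher than the control at day 4, 8 were higher and 6 lower than it at day 6, 11 were higher and 4 lower than it at day 8, and 6 were lower at day 8 than at day 4 in place of 0. Quantile normalization put 1 member, Stard4, at 2-fold lower from day 4 to day 8. With normexp correction, or the brightest probe of a gene, 1 member in place of 2 was at least 2-fold lower at day 6 and at day 8, since Stard4 was lost. At day 6, 3 members in place of 2 were at least 2-fold higher under 4 alternatives, with Npc2 added by quantile normalization, normexp correction and the array median, and Hmgcs1 by keeping all probes. Mvd at day 4 missed 2-fold under normexp correction, where 4 members were higher, Hmgcs1 at day 8 and Abca1 from day 4 to day 8 passed it under some scalings, and the brightest probe added Fdft1 at day 4. Of 928 values of single members, 874 moved by less than their error, 54 moved by more and 0 of those past 2-fold changed sign. The authors' values and the array median as the scale differ from the main values only by a constant per array. Their agreement, 116 of 116 values each, was therefore built in and is no support. The 92 and the 874 both include values from these alternatives. The sign turned under at least 1 alternative in 9 of 116 comparisons of single members, all under 2-fold: Hmgcs1, Nsdhl, Hsd17b7 and Ebp from day 4 to day 8, Srebf2, Scap and Stard4 at day 4, Npc1 at day 6 and Scap at day 8. The normexp correction gave 28 of the 54. The array median as the scale moved the median of all genes by -0.14 (day 4), -0.13 (day 6) and -0.27 (day 8) against the control, and changes under it are relative to the median of all genes.

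No paired analysis was possible because the conditions hold single arrays, with no replicate numbers to share, and no array was left out of a condition. The dimmest values, the Fdft1 probe and one Hsd17b7 probe among them, lie closest to the background, and a level there carries the largest error.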
